A study of Mus musculus with 65 samples.

Results

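The 3 ligand-receptor pairs through which retinal neurons are known to restrain microglia, namely Cx3cl1 with Cx3cr1, Cd200 with Cd200r1 and Cd47 with Sirpa, were followed in the mouse retina while microglia were removed and allowed to return. The 6 genes were taken by their symbols, which were matched to the Ensembl identifiers of the count table, and they were 6 of 50686 genes in it. Of the 6, 5 had enough reads to be tested. Cd200r1 had 2 reads in all 65 mice together and could not be tested.

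In the nervous system, neurons display these ligands on their surface and microglia carry the matching receptors. CX3CL1 (fractalkine) is a membrane-bound chemokine that can be cut free by the proteases ADAM10, ADAM17 and cathepsin S, and its receptor CX3CR1 is a Gi-coupled receptor of microglia and monocytes. CD200 engages CD200R1, which signals through the adaptors DOK1 and DOK2, and CD47 engages SIRPα, whose cytoplasmic tail recruits the phosphatases SHP-1 and SHP-2 and thereby restrains engulfment. CD47 is present on most cells, and SIRPα is also made by neurons, so only CX3CR1 and CD200R1 of the 3 receptors are largely restricted to myeloid cells.

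RNA-Seq of whole retinas was performed in 65 adult C57BL/6J mice of 16 groups. Microglia were depleted by PLX5622, an inhibitor of the receptor CSF1R that microglia need for survival, given in the diet, and the study asked how the retina changes when microglia are lost, when they repopulate it and when it is challenged with lipopolysaccharide (LPS), a bacterial cell wall component. All mice were of the same wild-type strain, and the groups carried no transgene. The control diet group (CD, 5 mice) received the vehicle diet. One of its mice is labelled 2M, a tag that the labels of the REPOP60 mice also carry. What the tag marks in CD was not established, and the mouse was kept in the group. Depletion groups received PLX5622 for 2 days (DEP2, 4 mice), 5 days (DEP5, 3 mice), or 7, 10, 14 or 21 days (DEP7, DEP10, DEP14 and DEP21, 4 mice each). Repopulation groups were returned to the vehicle diet for 3 or 5 days (REPOP3 and REPOP5, 4 mice each), 7 days (REPOP7, 6 mice), 10, 14 or 21 days (REPOP10, REPOP14 and REPOP21, 4 mice each) or 2 months (REPOP60, 4 mice). LPS was given to mice on vehicle diet (LPSCD, 3 mice) and to PLX5622-treated mice whose retina the study describes as repopulated (LPSREPOP, 4 mice), for which the labels give no length of repopulation. A compound in the diet reaches the whole animal, so myeloid cells outside the retina were exposed to PLX5622 as well.

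Each library held between 5106429 and 8760443 reads assigned to genes, with a median of 7944665, and the shallowest library belonged to REPOP21. Levels are given as CPM, the reads of a gene per 1000000 reads of the library, with the library size scaled by the TMM factor of edgeR over all 65 mice, as mean ± SD over mice. In a library without a read for a gene, a count of 0 allows up to 3 reads, which corresponded to 0.343 to 0.575 CPM depending on the library, and such limits and the intervals of count ratios cover counting error only. The retina as a whole was sequenced, so fewer cells of a type and less RNA per cell cannot be told apart, and no read can be assigned to a cell type. The library titles carry the suffix RE in 39 mice and re in 26 mice, and neither the labels nor the methods used here say what it marks. The suffix moved the levels of 45.5% of 28211 genes, including 4 of the 5 tested genes, by edgeR with Benjamini-Hochberg adjustment (FDR). It therefore entered each fit as an additive term, except in LPSREPOP against LPSCD, where all mice have the suffix re.

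Cx3cr1 (chr9:119901616-120069879, minus strand, GRCm38) is the receptor of the fractalkine pair and the gene of the 6 that follows the microglia. In CD mice its level was 3.484, 3.448, 1.934, 6.928 and 3.829 CPM, which came from 27, 29, 15, 59 and 29 reads. In the 4 DEP2 mice only 2, 1, 1 and 4 reads were found. From day 5 to day 21 of PLX5622, 1 read was found in 19 mice together, and 18 of those mice had no Cx3cr1 read. The deposited FPKM was not 0 in all of the 18. It was 0.003562 in DEP10 replicate 1, 0.01237 in DEP14 replicate 4 and 0.01287 in DEP21 replicate 4, against 0.5628 to 1.51 in CD mice. Why the FPKM and the counts differ there was not tested. None of the depleted mice, DEP2 included, reached the level of the lowest CD mouse.

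Relative to CD, Cx3cr1 was 16.1-fold lower at DEP2 (exact 95% counting interval of the ratio 7.95 to 37.8). Over the 19 mice of DEP5 to DEP21 the ratio of the pooled levels was 610 (108 to 24235), a wide interval because it rests on that 1 read. In DEP5, DEP10, DEP14 and DEP21, where every library was at 0, Cx3cr1 was at least 10.8-, 10.5-, 10.3- and 10.6-fold lower than in CD, with the floor set at 3 counts per library. The edgeR quasi-likelihood test of pooled depletion (the mean of DEP5, DEP7, DEP10, DEP14 and DEP21) against CD gave an FDR of 6.02e-12 for Cx3cr1. In that comparison 0.206% of 26155 genes passed an FDR of 0.05, and 0.149% were differentially expressed genes (DEGs) by the stricter rule, which asks for an FDR under 0.01 together with more than 1 on the log2 scale in either direction. Cx3cr1 entered the test through CD alone, since fewer than 0.5 of the mice of each depletion group had a read. It met both rules. It also did so in the RE mice alone and in the re mice alone.

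After PLX5622 was withdrawn, Cx3cr1 stayed near 0 before it rose. In the 14 mice of REPOP3, REPOP5 and REPOP7 there were 9 Cx3cr1 reads in all, and 8 of these mice had none. The deposited FPKM was nevertheless above 0 in some mice without a read. These were REPOP3 replicates 2 (0.02616) and 4 (0.02415), REPOP5 replicate 2 (0.01219) and REPOP7 replicates 5 (0.01279) and 6 (0.02514). In REPOP10 the level was 0.5193, 0.1284, 0.2484 and 1.231 CPM, all below the lowest CD mouse. In REPOP14 it was 2.208, 1.803, 1.742 and 1.123 CPM, and in REPOP21 it was 2.489, 1.64, 1.667 and 3.136 CPM. These 8 mice lay above every mouse of DEP2 to REPOP7, and 3 of them fell within the range of CD. In REPOP60 the values of 3.144, 4.023, 2.984 and 1.73 CPM overlapped those of CD in 3 of 4 mice.

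**Figure D1:**
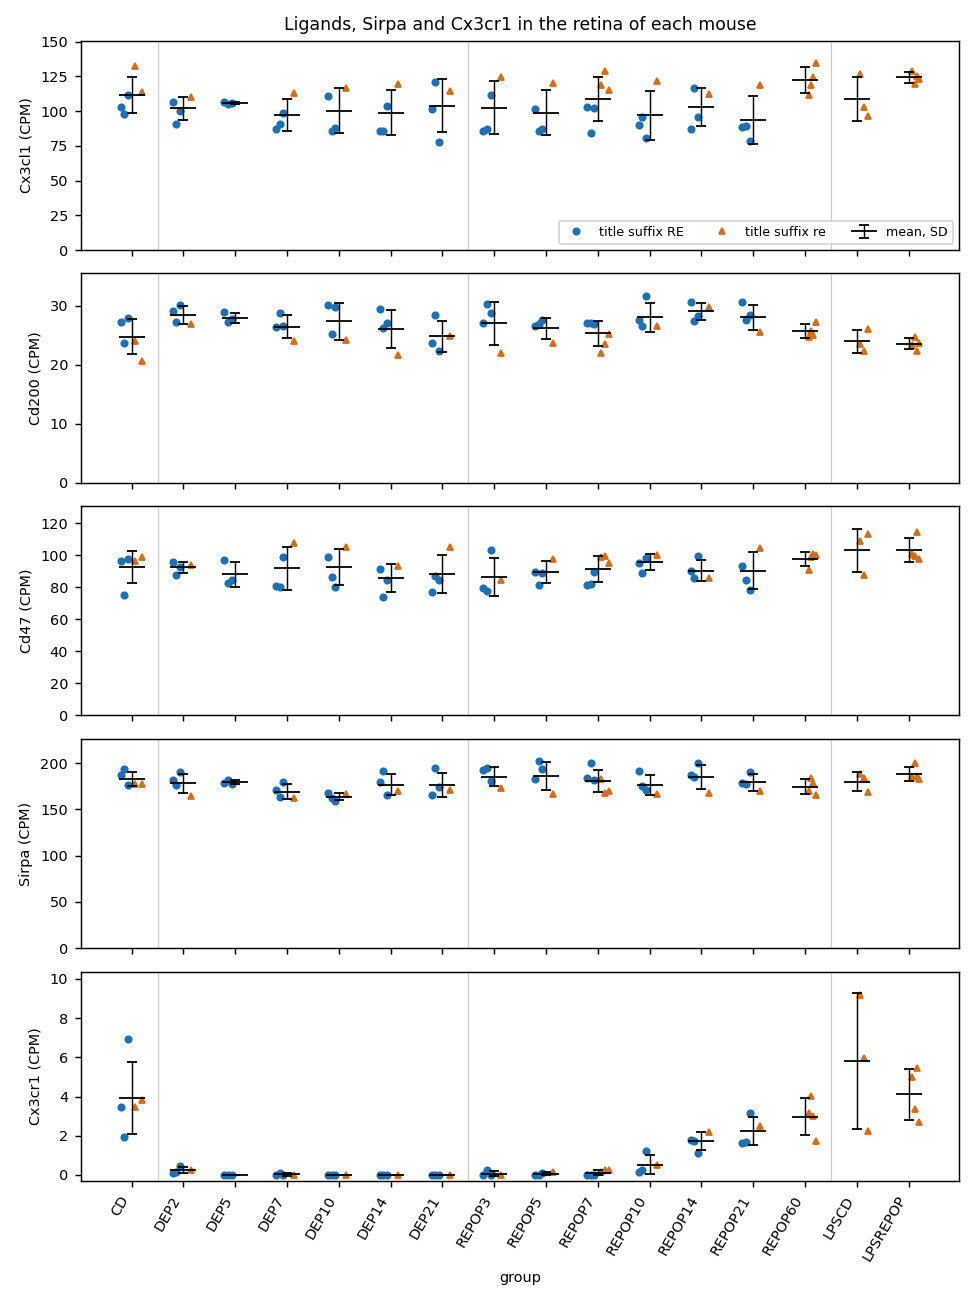
Level of 5 genes in each mouse, in CPM (y axis, linear and including 0), by group (x axis). Circles are mice with title suffix RE, triangles mice with suffix re, and black bars the mean and SD of a group. Cx3cl1, Cd200, Cd47 and Sirpa stay in narrow bands in all 16 groups, and Cx3cr1 falls to 0 or close to it from DEP2 to REPOP7 and is back between 1.123 and 3.136 CPM in REPOP14 and REPOP21.

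As a share of the CD mean, Cx3cr1 stood at 6.23% for DEP2, at 1.59%, 1.62% and 2.75% for REPOP3, REPOP5 and REPOP7, and at 13.6%, 43.8%, 56.9% and 75.7% for REPOP10, REPOP14, REPOP21 and REPOP60. The CD to REPOP ratio of counts was 63.5 (17.3 to 529) at REPOP3, 62.8 (17.1 to 523) at REPOP5, 37.8 (15.9 to 118) at REPOP7 and 7.4 (4.48 to 13) at REPOP10. Arranged by level, LPSCD came first, then LPSREPOP, CD, REPOP60, REPOP21 and REPOP14, and each neighbour lay within the SD of the next. The step from REPOP14 down to REPOP10 was the break in that order that exceeded the spread between mice. By edgeR, Cx3cr1 passed and was a DEG in 10 of the 13 time points against CD, namely all 6 depletion groups and REPOP3, REPOP5, REPOP7 and REPOP10, with FDRs from 1.95e-07 to 0.000316. In REPOP10 the call was lost without the suffix term (-2.85, FDR 0.0852), and in REPOP7 it was lost in the RE mice alone, which had no read there (FDR 0.0777). The stricter DEG call, but not the passing, was lost in the RE mice alone in DEP14 (FDR 0.0436), REPOP3 (FDR 0.0358) and REPOP5 (FDR 0.0143), in DEP14 also without CD replicate 2 (FDR 0.026) or CD replicate 3 (FDR 0.0121), in the re mice alone in REPOP7 (FDR 0.0329) and with filterByExpr in REPOP10 (FDR 0.0116). It did not pass in REPOP14 (log2 fold change -1.20, 95% interval -1.84 to -0.56, FDR 0.688), REPOP21 (-0.86, 95% interval -1.48 to -0.24, FDR 0.128) or REPOP60 (-0.29, 95% interval -0.97 to 0.38, FDR 1). The intervals of REPOP14 and REPOP21 lay wholly below 0 (unadjusted p 0.000689 and 0.00808), that of REPOP60 does not show that the level equalled that of CD, and without a filter on low counts Cx3cr1 passed in REPOP14 (FDR 0.00106) and REPOP21 (FDR 0.00831).

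Against pooled depletion, the 8 mice of REPOP14 and REPOP21 (later repopulation) had 119 Cx3cr1 reads where 19 depleted mice had 1, a ratio of 299 (52.7 to 11919). The edgeR FDR was 7.00e-12, in a comparison where 0.232% of 26725 genes passed and 0.127% were DEGs. With DEP14 as the baseline, the day at which the PLX5622 diet was stopped in the REPOP groups, Cx3cr1 was at least 4.53-fold higher in REPOP14 (FDR 0.00119) and at least 5.88-fold higher in REPOP21 (FDR 0.00105), and both calls were lost in the RE mice alone (FDR 0.073 and 0.057). In REPOP10 it was at least 1.4-fold higher and did not pass (FDR 0.987). The shares of all genes that passed in these 3 comparisons were 0.0123% for REPOP10, 0.0367% for REPOP14 and 0.037% for REPOP21.

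None of the 3 ligand genes passed in any depletion or repopulation group by edgeR with the suffix term, although Cx3cl1 did so in REPOP21 under 2 of the alternatives (FDR 0.0471 in the RE mice alone and 0.0421 without a filter on low counts). The shares of all genes that passed against CD were 0.109% (DEP2), 0.0646% (DEP5), 0.108% (DEP7), 0.096% (DEP10), 0.067% (DEP14) and 0.139% (DEP21). For the repopulation groups they were 0.0629% (REPOP3), 0.0756% (REPOP5), 0.089% (REPOP7), 0.365% (REPOP10), 0.0125% (REPOP14), 1.9% (REPOP21) and 0% (REPOP60, with 779 genes at an unadjusted p under 0.05). With so few genes passing at most times, 0 of 13 for a given gene is what most of the transcriptome showed, and the size of each difference with its interval says more than the count. DESeq2 called none of the 3 ligands or Sirpa at any time either. All 13 comparisons share the 5 CD mice, so they are not independent of each other.

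Cx3cl1 (chr8:94772009-94782427, plus strand) encodes fractalkine. Its level in CD mice was 132.4, 103.1, 98.1, 111.4 and 114 CPM. In pooled depletion it ranged from 78.07 to 121.3 CPM with a median of 103.4 (19 mice), and 7 of those mice lay below the lowest CD mouse while the other 12 fell within the CD range. The group means were 112 ± 13.2 CPM in CD and 101 ± 13.4 CPM in pooled depletion. The edgeR log2 fold change was -0.09 with a 95% interval of -0.22 to 0.05, that is, between 0.856 and 1.03 times the CD level (FDR 0.892). It was -0.11 in the RE mice alone and -0.09 in the re mice alone.

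At single times, the log2 fold change of Cx3cl1 against CD lay between -0.23 and 0.02, and it was below 0 in 12 of 13 comparisons. One of the 12 was REPOP60, at -0.0082, where all 4 mice are re, so that within a suffix the value rests on 2 CD mice, and it became 0.13 without the suffix term. The lowest group was REPOP21, with 118.9, 88.3, 89.26 and 78.39 CPM, of which 3 mice lay below the lowest CD mouse. Its log2 fold change there was -0.23 (-0.38 to -0.08), and it did not pass (FDR 0.0913, edgeR) in a comparison where 1.9% of all genes did. In the 2 alternatives under which it passed it was -0.30 (RE mice alone) and -0.22 (no filter on low counts). DEP7 (-0.16, FDR 0.507) and REPOP10 (-0.17, FDR 0.388) were the other times with an unadjusted p under 0.05. Between later repopulation and pooled depletion, Cx3cl1 differed by -0.06 (-0.18 to 0.06, FDR 0.804).

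Cx3cl1 was also the gene of the 5 that differed most with the title suffix. In re mice it stood 0.32 (SE 0.04) higher on the log2 scale than in RE mice (FDR 1.25e-09, edgeR), a difference larger in size than any of its 13 differences from CD. Of the 12 groups that hold both kinds of mice, 10 had a re mouse as their highest and 0 as their lowest. The change with depletion was not shown to differ between RE and re mice (difference of the log2 fold changes 0.05, SE 0.14, FDR 1). On the FPKM scale the direction turned, with a difference of 0.36 on log2(FPKM + 1) in pooled depletion (limma). In CD replicates 3 and 4 and in 1 mouse each of DEP5, DEP7 and DEP10, the deposited FPKM was far below the level of the other mice while the counts were not, and their part in that value was not tested.

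Cd200 (chr16:45382135-45409053, minus strand) encodes the ligand of the second pair, a surface glycoprotein of neurons and endothelium. In CD mice it was 24, 27.23, 23.72, 27.95 and 20.6 CPM. In pooled depletion it ranged from 21.64 to 30.12 CPM with a median of 26.59, with 13 of 19 mice in the CD range and 6 above it. The log2 fold change was 0.06 (-0.08 to 0.20, FDR 0.927), and it was 0.04 in the RE mice alone and 0.08 in the re mice alone. Over the 13 times it lay between -0.01 and 0.21 and was above 0 in 12, and the smallest FDR was 0.477.

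The highest Cd200 level was that of REPOP14, with 29.74, 30.66, 27.4 and 28.19 CPM, where 3 of 4 mice lay above the highest CD mouse. The log2 fold change there was 0.21 (0.01 to 0.41), the only one of the 13 with an unadjusted p under 0.05, and its FDR was 0.995 by edgeR. Without REPOP14 replicate 1, the only re mouse of that group, it was 0.12. Later repopulation differed from pooled depletion by 0.11 (0.00 to 0.23, unadjusted p 0.0506 and FDR 0.575 by edgeR). Cd200 moved with the title suffix in the direction opposite to Cx3cl1, at -0.17 (SE 0.04) in re mice.

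Cd47 (chr16:49800533-49915010, plus strand) encodes the ligand of SIRPα, a membrane protein with a broad tissue distribution. In CD mice it was 96.12, 96.3, 75.16, 97.35 and 99.03 CPM, so that a single mouse stood well below the other 4. In pooled depletion it ranged from 73.6 to 107.4 CPM with a median of 86.27, and 15 of 19 mice lay in the CD range. The log2 fold change was -0.02 (-0.14 to 0.11, FDR 1), at -0.07 in the RE mice alone and 0.07 in the re mice alone. It lay between -0.10 and 0.05 at the 13 times, none of which had an unadjusted p under 0.05, and later repopulation differed from pooled depletion by 0.01 (-0.10 to 0.11, FDR 1).

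**Figure D2:**
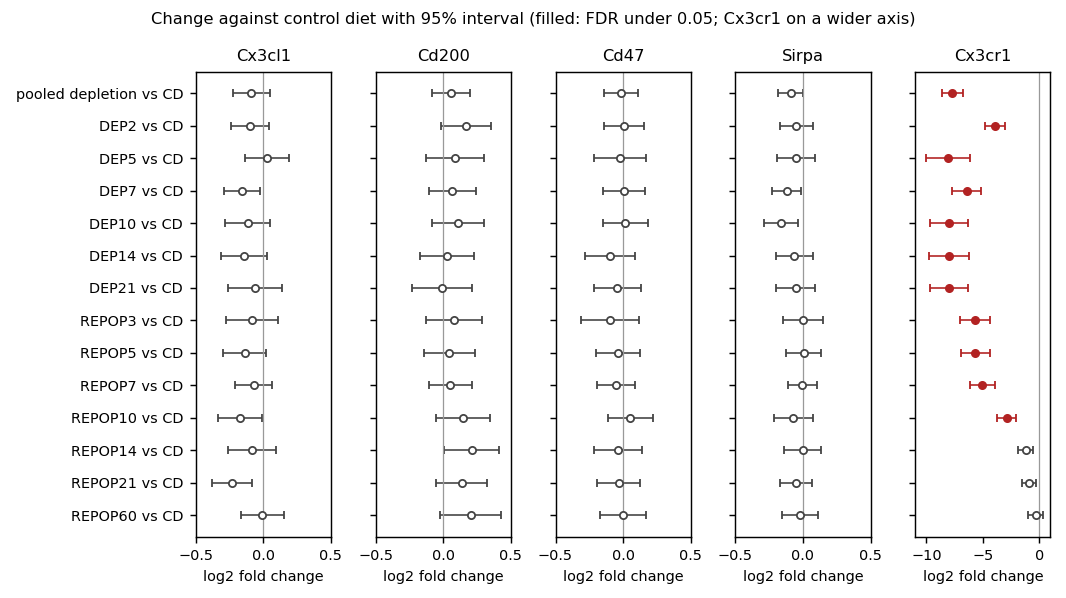
Log2 fold change against CD (x axis) with its 95% interval for 5 genes in pooled depletion and at 13 times (y axis), from edgeR fits with the title suffix as a term. Filled points passed an FDR of 0.05, and the Cx3cr1 panel has a wider axis than the others; where all libraries of a group had no Cx3cr1 read, its point depends on the prior count of the fit. Open points of the 3 ligands and Sirpa lie between -0.23 and 0.21.

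Sirpa (chr2:129592835-129632228, plus strand) encodes the receptor of CD47. Its level in CD mice was 177.4, 187.8, 193.4, 176.8 and 177.7 CPM, and in pooled depletion it ranged from 159.1 to 195.1 CPM with a median of 171.1. Of the 19 depleted mice 12 lay below the lowest CD mouse, 6 within the range and 1 above it. The means were 183 ± 7.54 and 173 ± 9.9 CPM, and the log2 fold change was -0.09 (-0.18 to 0.00, that is 0.882 to 1 times the CD level), which did not pass (unadjusted p 0.0561 and FDR 0.836, edgeR). A loss of more than 0.18 on the log2 scale lies outside that interval.

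The share of all genes that lie as far below the CD range, in pooled depletion or at a single time, was not computed. Of the 13 times compared with CD, DEP10 had the lowest Sirpa level, at 166.5, 167.8, 162 and 159.1 CPM, all 4 below the lowest CD mouse. The log2 fold change there was -0.16 (-0.29 to -0.03, FDR 0.758), and in DEP7 it was -0.12 (-0.23 to -0.01, FDR 0.558). From REPOP3 to REPOP60 the values lay between -0.07 and 0.00. Later repopulation stood 0.08 above pooled depletion (0.00 to 0.15, unadjusted p 0.0527 and FDR 0.58 by edgeR), with a mean of 182 ± 10.8 CPM.

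Cd200r1 (chr16:44765736-44794978, plus strand) encodes the inhibitory receptor for CD200. It had 1 read in a DEP2 mouse and 1 in an LPSCD mouse, and none in the other 63, CD included. A level below the limit that a count of 0 allows cannot be told from absence at this depth, so loss and return of this receptor could not be followed. Its paralogs were as low, with 1 read for Cd200r2, 0 for Cd200r3 and 2 for Cd200r4 over 65 mice. Sirpb1a had 2 reads and its SIRP-family relatives Sirpb1b and Sirpb1c none.

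Across the 16 groups, the highest group mean exceeded the lowest by 1.33 times for Cx3cl1, 1.23 times for Cd200, 1.2 times for Cd47 and 1.15 times for Sirpa, in CPM that are not adjusted for the title suffix. For Cx3cl1 the highest groups, LPSREPOP and REPOP60, hold only re mice, and REPOP21, the lowest, holds 3 RE mice and 1 re mouse. When the 16 groups were put in order of their mean, all 15 neighbouring pairs lay within their SD for each of these 4 genes. On the FPKM scale, which corrects for gene length, the median level over 65 mice was 46 for Sirpa, 34.9 for Cx3cl1, 21.8 for Cd47 and 13.5 for Cd200. Cx3cr1 had a mean FPKM of 0.933 in CD. The ligand and receptor transcripts of the fractalkine pair were measured at very different depths, with 54062 reads of Cx3cl1 and 668 of Cx3cr1 over all mice.

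**Figure D3:**
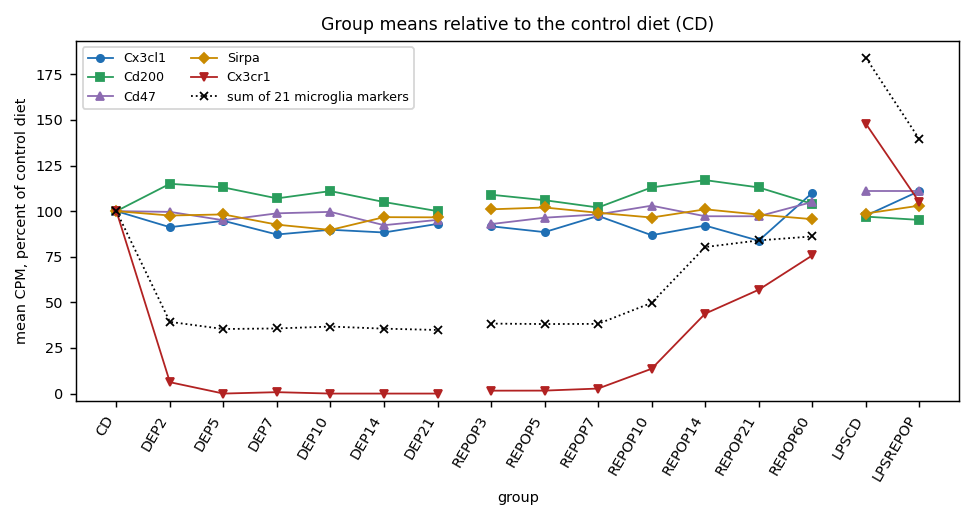
Mean CPM of each group as a percentage of the CD mean (y axis) by group (x axis), for 5 genes and for the summed CPM of 21 microglia markers. Lines join groups of the time course and have no meaning across the gap to the LPS groups. The 3 ligands and Sirpa stay between 83.8% and 117% in all groups, and Cx3cr1 goes down to 0% and back to 75.7% in REPOP60.

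Markers of microglia and of other cell types of the retina were read beside the pair genes. Of 21 microglia markers, 19 fell in pooled depletion (edgeR), with a median log2 fold change of -4.66, or -3.88 with the 2 genes without a read at their bound, where the median over all tested genes was -0.01. Their summed level went from 79 ± 6.4 CPM in CD to 28.1 in DEP14 and 27.5 in DEP21. In DEP14, 10 of the 21 had no read, and C1qb had none in all 19 mice. In later repopulation 19 of the 21 rose (median 4.05, or 3.39 with bounds), and the sum reached 63.4 CPM in REPOP14 and 66.3 in REPOP21. C1qb and Siglech, the 2 without a read in pooled depletion, entered both comparisons through the other groups alone. They could only fall against CD and only rise in later repopulation.

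None of the markers of retinal neurons passed in pooled depletion, and which of these neurons make the ligands was not examined. The calls were 0 of 10 ganglion cell, 0 of 9 amacrine, 0 of 7 bipolar, 0 of 4 horizontal and 0 of 11 photoreceptor markers. In these lists 1, 2, 4, 0 and 3 markers had an unadjusted p under 0.05 (edgeR). Their median log2 fold changes were 0.08, 0.01, 0.14, -0.01 and 0.02. In later repopulation against pooled depletion, the cone arrestin Arr3 fell by 0.26 on the log2 scale (FDR 0.00123) and no other neuronal marker passed, although 6 of 11 photoreceptor, 3 of 10 ganglion cell and 2 of 7 bipolar markers had an unadjusted p under 0.05. The summed level of the photoreceptor markers was 43785 ± 7046 CPM in REPOP21, the lowest of the groups, against 50658 ± 4546 CPM in CD. Other macrophage and monocyte markers (0 of 6 tested, sum 15.8 CPM in CD with Lyve1 at 14.4), endothelial markers (0 of 7) and lens, pigment epithelium and blood markers (0 of 9) did not pass in pooled depletion either, with 2, 1 and 0 of them at an unadjusted p under 0.05.

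Of 8 Müller glia and astrocyte markers, Gfap, the intermediate filament of reactive glia, rose in pooled depletion. It went from 11.3 ± 0.942 CPM in CD, where the highest mouse was at 12, to 18.9 ± 3.87 CPM, where the lowest was at 14 (log2 fold change 0.72, FDR 0.000626). It was the only gene of 26155 that passed upward in that comparison. Whether it has a part in the levels of the ligands was not tested.

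The genes that act around the pairs were examined next, from lists of related ligands, inhibitory receptors, signalling proteins below them and enzymes that process the ligands. Of 15 other ligands that act on microglia, none passed in pooled depletion (edgeR, 5 with an unadjusted p under 0.05; median -0.14), and none in later repopulation (3 with an unadjusted p under 0.05). Il34, the neuronal CSF1R ligand, differed by -0.14 (-0.41 to 0.13) and Csf1 by -0.16 (-0.42 to 0.09). Tgfb1, which maintains the microglial state and which microglia also make, had -0.54 (-1.01 to -0.08, FDR 0.772) in pooled depletion and 0.64 (FDR 0.374) in later repopulation. Cd55, a decay-accelerating factor of the complement system, had 0.94 (0.18 to 1.70, FDR 0.749).

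Among 16 other receptors in the list of inhibitory or restraining receptors, 5 fell in pooled depletion and none rose. Siglech and Csf1r are 2 of the 5 that this name does not describe, since Siglech signals through the activating adaptor DAP12 and Csf1r is a growth factor receptor, and both are also in the list of microglia markers. Siglech, a sialic acid receptor of microglia, had 44 reads in 5 CD mice and 0 in 19 depleted mice (FDR 4.19e-07). Cd33, another sialic acid receptor, had 32 reads in CD and 4 in the depleted mice (FDR 6.7e-06). Fcgr2b, the inhibitory Fc receptor, had 10 and 0 reads (FDR 0.0102), and Havcr2 (TIM-3) had 22 and 10 (FDR 0.000902). Siglech and Fcgr2b, without a read in the depleted mice, entered the test through CD alone, so that they could only fall.

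Csf1r, the target of PLX5622, was the fifth, at 17.1 ± 2.45 CPM in CD and 8.96 ± 1.48 CPM in pooled depletion (log2 fold change -0.88, FDR 1.64e-07). Its FPKM went from 1.48 ± 0.2 to 0.0288 ± 0.0184, a far deeper loss than in the counts. The annotated span of Csf1r overlaps that of Hmgxb3 on the opposite strand, and whether reads of that gene were counted with Csf1r was not tested. In later repopulation the 5 receptors rose again, with Cd33 at 47 reads and Siglech at 31 in 8 mice, and Lilrb4a, an inhibitory leukocyte receptor, passed with 11 reads in 8 mice against 3 in 19. Siglech and Fcgr2b could only rise there, since they entered that comparison through the REPOP groups alone.

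Among 13 signalling genes, Fyb, an adaptor of immune receptor signalling, fell in pooled depletion (24 reads in CD, 13 in 19 depleted mice, FDR 0.00232). Ptpn6, which encodes SHP-1 and acts below SIRPα, was at 0.764 ± 0.442 CPM in CD and 0.314 ± 0.123 CPM in pooled depletion and did not pass (log2 fold change -1.29, FDR 0.201). Inpp5d, the inositol phosphatase SHIP1, had -0.66 (FDR 0.261). Both rose in later repopulation, Ptpn6 by 1.66 (FDR 0.000358) and Inpp5d by 0.74 (FDR 0.0207), as did Fyb (2.61, FDR 0.0103). Ptpn11, which encodes the broadly expressed SHP-2, differed by 0.00 (-0.10 to 0.10) and by 0.02 (-0.05 to 0.10).

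Of 6 enzymes that cut or modify the ligands, Ctss changed. This gene of cathepsin S, which sheds CX3CL1 and is made by microglia, had 281 reads in 5 CD mice and 17 in 19 depleted mice (log2 fold change -6.17, FDR 2.54e-18), and it rose in later repopulation (5.68, FDR 1.05e-18). The sheddases Adam10 and Adam17, which are widely expressed, had 58.5 ± 7.96 and 24.4 ± 2.48 CPM in CD and differed by 0.02 (-0.09 to 0.14) and 0.13 (-0.02 to 0.27) in pooled depletion. The plot of single genes by list shows the fallen genes among the microglia markers, the other receptors, 1 signalling gene and 1 processing gene. Csf1r, Siglech and Ctss stand in 2 lists each, as microglia markers and as receptors or processing gene, and are counted in both.

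**Figure D4:**
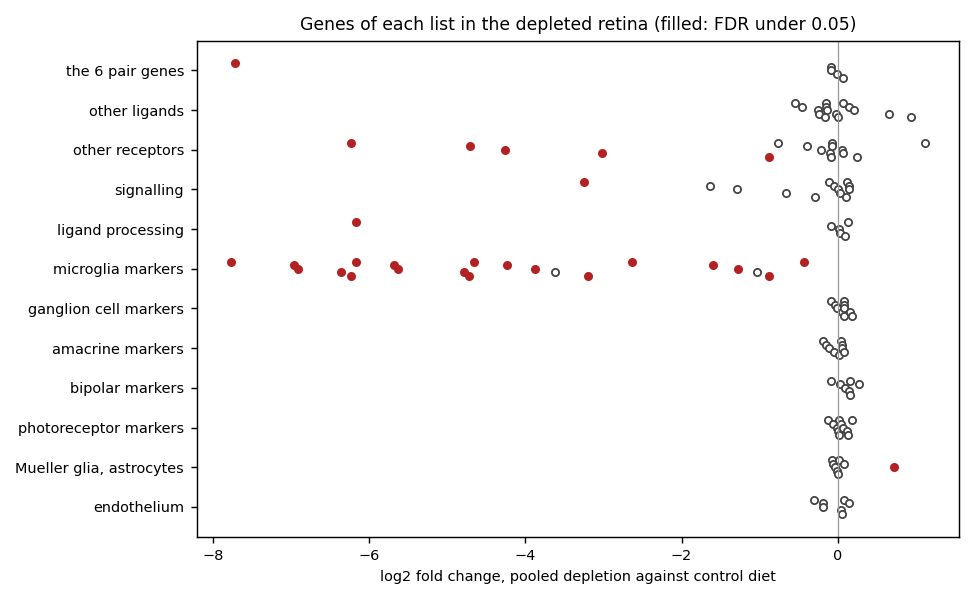
Log2 fold change in pooled depletion against CD (x axis) of every tested gene, by list (y axis), from edgeR. Filled points passed an FDR of 0.05; genes without a read in the depleted mice are drawn at the fitted value, which depends on the prior count. The fallen pair gene at the left is Cx3cr1, and the filled glial point on the right is Gfap at 0.72.

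The LPS groups asked whether an inflammatory challenge moves the pairs, and whether a repopulated retina answers it differently. All LPSCD and LPSREPOP mice have the suffix re, so their comparison with CD rests, within a suffix, on 2 CD mice. LPSCD replicate 1 stands apart from the other LPSCD mice: 11 genes (0.0466% of those tested) passed in LPSCD against CD with it, and 1356 without it. No gene passed in the re mice alone or without any of CD replicates 1 to 4, and 1 passed without CD replicate 2M. None of the 5 tested pair genes passed in any of these fits.

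Cx3cr1 was 9.166, 5.98 and 2.257 CPM in the LPSCD mice, the widest spread of any group, with 1 mouse above the highest CD mouse and 2 within the CD range. Its log2 fold change was 0.66 (-0.45 to 1.76, FDR 0.643), so that neither a small loss nor a rise to 3.39 times the CD level lies outside the interval. Without LPSCD replicate 1 it was 0.16, and without LPSCD replicate 3 it was 1.04. Cx3cl1 was 127, 103.3 and 96.69 CPM (-0.18, -0.45 to 0.09, FDR 0.631), a value that became -0.04 without the suffix term. Cd200 (0.10, -0.21 to 0.40), Cd47 (0.07, -0.21 to 0.36) and Sirpa (0.02, -0.18 to 0.22) had FDRs from 0.837 to 0.958. With single mice left out, Cd200 ranged from -0.0073 to 0.21, Cd47 from 0.0036 to 0.18 and Sirpa from -0.018 to 0.062.

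Other genes of the lists rose with LPS in the fit of all 8 mice, calls that were all lost in the re mice alone and without any of CD replicates 1 to 4. The complement genes C1qa (2.0, FDR 0.0318), C1qb (2.48, FDR 0.0103) and C1qc (2.41, FDR 0.0341), Ctss (1.72, FDR 0.0198) and the endothelial genes Cldn5 (1.54, FDR 0.0198) and Vwf (2.36, FDR 0.0103) passed by edgeR. Of 21 microglia markers 4 passed, Ctss among them, and their summed level was 146 ± 11.7 CPM in LPSCD against 79 ± 6.4 in CD. Markers of other cell types moved as well without passing. An unadjusted p under 0.05 (edgeR) was found for 3 of 8 other macrophage and monocyte markers and 4 of 8 Müller glia and astrocyte markers. The same held for 5 of 10 ganglion cell, 2 of 7 bipolar and 5 of 11 photoreceptor markers, and for 0 of 9 amacrine and 0 of 4 horizontal markers. The summed ganglion cell markers stood at 1095 CPM in LPSCD and 1312 CPM in CD. None of the 14 other ligands, 15 other receptors and 13 signalling genes tested passed, of which 6, 7 and 2 had an unadjusted p under 0.05. Of the receptors, Tgfbr2, which binds TGF-β, had the smallest unadjusted p (log2 fold change 1.06, FDR 0.129), followed by Cd33 (84 reads in 3 mice, FDR 0.129) and Fcgr2b (54 reads in 3 mice, FDR 0.134).

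In LPSREPOP, Cx3cr1 was 4.983, 3.351, 5.44 and 2.689 CPM, all within the range of CD and of LPSCD. Relative to LPSCD it differed by -0.49 (-1.30 to 0.32, FDR 0.695), and by 0.01 without LPSCD replicate 1. Cx3cl1 was 129.2, 119.4, 125.7 and 123.2 CPM, overlapping LPSCD, and stood 0.19 higher (-0.02 to 0.40, FDR 0.628). Cd200 (-0.02, -0.25 to 0.20), Cd47 (0.00, -0.21 to 0.22) and Sirpa (0.07, -0.10 to 0.23) had intervals on both sides of 0. In this comparison 0% of 24500 genes passed by edgeR, 1973 had an unadjusted p under 0.05, and 843 passed without LPSCD replicate 1, of which none was a pair gene. Without that mouse Cx3cl1 stood 0.32 higher in LPSREPOP, and its smallest FDR with a mouse left out was 0.0584 (edgeR), just short of passing.

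The likeness of each gene's pattern to other genes was described by Pearson's r over the 65 mice, after the mean of the mice with the same suffix was taken off log2(CPM + 1), among 15876 genes. Cx3cr1 was most like Ctss (0.937), Laptm5 (0.932) and C1qa (0.914). Cx3cl1 was most like Hcn3 (0.893), Agpat1 (0.856) and Tmem201 (0.856), and Cd47 most like Mmd2 (0.649), Tspan13 (0.612) and Fhl1 (0.601). Sirpa was most like Cyth1 (0.656), Bin1 (0.643) and 6530402F18Rik (0.637), and Cd200, with the weakest likeness, most like Fam20b (0.481), Thap1 (0.473) and Mum1l1 (0.445). Between the partners of a pair the correlation was 0.03 for Cx3cl1 and Cx3cr1 and 0.01 for Cd47 and Sirpa. The highest among the 5 genes was 0.375, between Cx3cr1 and Sirpa. In these correlations all points share library depth and the groups.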

How the data were processed

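Whole retinas of 65 mice were sequenced by the authors. Per the labels and the methods of the study, they removed adaptor and low-quality reads, aligned the rest to mm10 with HISAT2, counted reads per gene with HTSeq and estimated FPKM with StringTie (versions not given in the sources used here). The labels name poly-A selection, and whether counting used strand is not given. The deposited count table holds whole reads per gene and was the basis of every test. The deposited FPKM table was used for levels per length and in 2 alternatives, limma on log2(FPKM + 1) and log2(FPKM + 0.1). CPM was computed here from the counts, with library sizes over all genes of the table scaled by TMM factors from all 65 mice, and ratios of pooled counts used the same sizes.

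Each comparison was fitted with edgeR 4.0.16 (R 4.3.3) by the quasi-likelihood test with TMM normalization on the mice of the groups compared, with the title suffix as an additive term wherever both suffixes were present (all but LPSREPOP against LPSCD). The study describes an additive model for batch but the sources used here name no batch, so the suffix stands for it only as a label. Genes with at least 1 read in at least 0.5 of the mice of a compared group entered, and p-values were adjusted by Benjamini-Hochberg over all of them (FDR). A gene passed at an FDR under 0.05. Ratios of counts have exact conditional intervals. Alternatives used DESeq2 1.42.0 and limma 3.58.1, and tables and figures Python 3.11.15. The fits were also run on simulated counts without a suffix effect, in which only genes above a minimum mean count were changed. That run does not cover genes at low counts or the suffix term. No pair of libraries of a group agreed within sampling noise (smallest chi-square per gene 1.39 over 103 pairs).

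The 6 genes and the gene lists were chosen with earlier results of these data known. The genes named were the 6, listed relatives, ligands, receptors, signalling and processing genes that passed in a pooled or LPS comparison, cell type markers, and for each of the 6 the 3 genes of highest correlation. Il34, Csf1, Tgfb1, Tgfbr2, Cd55, Ptpn11, Adam10 and Adam17 were named after their values were seen, as were values of passing genes in comparisons where they missed the threshold. Symbols and positions are from GENCODE M21. Sirpd and Cd200l1 matched no identifier and were not analysed here. The level of 1 microglia marker by itself is not reported here.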

Additional observations from a re-analysis of the deposited data

Results flagged for a closer look

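In 5 of the 67 sets of 4 to 6 mice examined for the 5 measured genes, a single mouse lay far from the others by Dixon's criterion. Chance alone meets it in about 1 of 20 sets of continuous values, a rate that does not apply to the 2 Cx3cr1 sets below, where any single count above 0 meets it. The Cx3cr1 level of DEP7 replicate 3 was 0.1211 CPM, from 1 read, where the other 3 DEP7 mice had no read. That of REPOP3 replicate 3 was 0.2496 CPM, from 2 reads, where the other mice of the group had none. The Cd47 level of CD replicate 3 was 75.16 CPM against 96.12 to 99.03 in the other CD mice, and that of REPOP60 replicate 1 was 90.79 CPM against 99.15 to 100.5. The Sirpa level of LPSREPOP replicate 2 was 199.8 CPM against 183.2 to 186 in the other 3.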

How the results depend on the processing

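Of 1263 recomputed values of the 5 genes, 1214 kept their side of the threshold and, where the threshold was missed, moved by less than their SE. Differences short of the threshold changed sign in 64 of them, and no called value did. Cx3cr1 in pooled depletion and in later repopulation passed under every alternative run. Depth limits what can be said of Cx3cr1 below about 3 reads per library and of Cd200r1 at all, and LPSCD has 3 mice. Causes of the shifts below were not tested.

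On log2(FPKM + 1) and log2(FPKM + 0.1), limma gave 0.36 and 0.38 for Cx3cl1 and -0.15 and -0.15 for Sirpa in pooled depletion, 0.079 and 0.081 for Cx3cl1 and -0.061 and -0.063 for Sirpa in later repopulation, and -0.028 and -0.029 for Cx3cl1 and 0.39 and 0.42 for Cd200 in LPSCD. In LPSREPOP they gave 0.090 and 0.092 for Cx3cl1, and with 0.1 added 0.11 for Cd47. None passed. In the re mice alone Cd47 was 0.068 in pooled depletion, and Cd200 0.24, Cd47 -0.12 and Sirpa 0.015 in later repopulation. Without the suffix term Cx3cl1 was -0.039 and Cd200 -0.048 in LPSCD, Cx3cl1 -0.080 in DEP5, and Cx3cl1 0.13 and Cd200 0.056 in REPOP60. Cx3cr1 lost its call in REPOP10 without the suffix term (-2.85, FDR 0.0852) and with DESeq2 (-2.90, no adjusted p), and in the RE mice alone in REPOP7 (-8.09, FDR 0.0777) and against DEP14 in REPOP14 (6.67, FDR 0.073) and REPOP21 (7.11, FDR 0.057). Without a gene filter it passed in REPOP14 (-1.20), REPOP21 (-0.85) and REPOP10 against DEP14 (5.12), and Cx3cl1 passed in REPOP21 (-0.22, or -0.30 in the RE mice alone). The values of -8.09, 6.67, 7.11 and 5.12 are fitted against mice without a Cx3cr1 read, depend on the prior count and do not measure the size of the change.

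No source links mice of the same replicate number, and after group and suffix were taken off such mice correlated unevenly, between -0.491 and 0.557 in pooled depletion and between -0.288 and 0.563 in DEP14 against CD, so the numbers were not used as pairs. With a replicate block Cx3cr1 was 1.38 in LPSCD and passed in REPOP21 (-0.83, FDR 0.0472), Cd200 was -0.087 and Sirpa 0.046 in REPOP7, and Cx3cl1 was -0.24 and Cd200 0.040 in REPOP60. The block moved the count of passing genes from 11 to 18 in LPSCD, from 16 to 153 in DEP14 and from 3 to 7 in REPOP14.

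The count of passing genes was 54 in pooled depletion, 18 with filterByExpr and 119 without a filter. In later repopulation it was 62, 18 with filterByExpr, 337 without a filter and 37 in the RE mice alone. In LPSCD it was 11, 574 without the suffix term, 0 in the re mice alone, 97 with DESeq2, 4 with filterByExpr, 786 without a filter and 1813 with all 16 groups in 1 fit. In LPSREPOP it was 0, 11 without a filter, 7 and 11 on the FPKM scales with 1 and 0.1 added, and 372 with all groups. In DEP14 it was 16, 10 in the RE mice alone, 10 with filterByExpr and 67 without a filter. In REPOP14 it was 3, 0 without the suffix term, in the RE mice alone, with filterByExpr or with all groups, 1 with DESeq2 and 37 without a filter.

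Leaving out each mouse in turn was run in 6 comparisons (84 fits: both pooled, both LPS, DEP14 and REPOP14 against CD). None of the 5 genes gained or lost a pass at an FDR of 0.05 there. The stricter DEG call of Cx3cr1 in DEP14 was lost without CD replicate 2 (FDR 0.026, edgeR) or CD replicate 3 (FDR 0.0121). The Cx3cr1 calls at the other times and against DEP14 were not examined in this way. In pooled depletion Cx3cl1 ranged from -0.12 to -0.055 (without CD replicate 4), Cd200 from 0.023 (without CD replicate 3) to 0.091 (without CD replicate 4), and Cd47 from -0.070 to 0.032 (without the same 2 mice). Cx3cl1 ranged from -0.13 to -0.037 in later repopulation, from -0.18 to -0.032 in REPOP14 (both lowest without REPOP14 replicate 3), from -0.31 to -0.068 in LPSCD and from 0.11 to 0.32 in LPSREPOP. Cx3cr1 ranged from -0.87 to 0.0056 in LPSREPOP and from -1.42 to -0.77 in REPOP14 (highest without CD replicate 4), and Cd47 from -0.10 to 0.075 in LPSREPOP and from -0.12 to 0.028 in REPOP14. Passing genes ranged from 9 to 14 in DEP14 (9 without CD replicate 2 or 4), 0 to 6 in REPOP14 (6 without REPOP14 replicate 3), 39 to 124 in later repopulation (39 without REPOP21 replicate 3, 124 without REPOP14 replicate 3), 0 to 1356 in LPSCD (0 without any of CD replicates 1 to 4) and 0 to 843 in LPSREPOP, the last 2 highest without LPSCD replicate 1. Where the fit left 1 mouse of a suffix in a group, that mouse was taken to vary like the others.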

Other observations

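The deposited FPKM of Cx3cl1 falls into separate ranges that the counts do not show. In 6 of 65 mice (5 RE and 1 re, from 5 groups, 2 of them CD mice) the FPKM lay between 9.68 and 18.4, and in the other 59 it lay between 29.4 and 48.3. The CPM of the 6 mice, at 88.3 to 117, fell inside the 78.1 to 135 CPM of the other 59. The ratio of FPKM to CPM was 0.098 to 0.157 in the 6 and 0.292 to 0.436 in the others, and no mouse stood apart in this way for Cd200, Cd47 or Sirpa. The cause was not tested.

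The annotated span of Cx3cr1 overlaps 9 other genes, of which 5 are protein coding, and those of Cx3cl1, Cd200, Cd200r1, Cd47 and Sirpa overlap none. In the 19 mice of DEP5 to DEP21 it had 1 read.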
